A study of Mus musculus with 27 samples.

Results

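RNA bound to chromatin was compared with RNA of the cytoplasm in a mouse neural progenitor cell line (mNPC), in 3 chromatin and 3 cytoplasm libraries chosen by their labels, which are 6 of the 27 libraries of the series. The series covers 3 cell types, E14 embryonic stem cells (mESC) kept with LIF, the mNPC line and primary cortical neurons (mCtx) held 5 days in culture, each separated into chromatin, soluble nucleoplasm and cytoplasm, with 3 biological replicates in each of the 9 groups. The mNPC line was established in the submitters' laboratory and grown in DMEM/F12 with B27 lacking vitamin A, GlutaMax and antibiotics, with EGF and FGF added daily at 10 ng/ml. Both mNPC groups therefore share 1 line, 1 medium and no added treatment, and they differ in the fraction and in the reagent its RNA was taken up in, Trizol LE for cytoplasm and Trizol for chromatin, which cannot be told apart. RNA longer than 200 nt was kept, ribosomal RNA was depleted, and stranded libraries were read as 100 bp pairs.

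RNA is made on chromatin, where introns are removed during and after transcription, and most finished mRNA then leaves for the cytoplasm. Chromatin RNA is therefore known to be rich in unspliced precursors and in noncoding RNAs that stay in the nucleus, while cytoplasmic RNA is mostly spliced mRNA held by ribosomes. A gene whose span is mostly intron gives many precursor reads in a count over its whole span, and neural adhesion and guidance genes are among the longest in the genome.

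Total counts ran from 12194455 to 15558952 in the mNPC chromatin libraries and from 13766242 to 18072292 in the cytoplasm, within the range of 11249862 to 19871198 over all 27 libraries. Levels are given as CPM, counts scaled to the effective library size, and they describe shares within a fraction, since the amount of RNA per cell in each fraction was not measured. The label was checked against marker genes. All 16 neural progenitor and radial glia markers were at 10 CPM or more in the cytoplasm, with a summed level of 7827 to 8505 CPM there and 7734 to 8473 CPM in chromatin. They summed to 660.2 to 761.7 CPM in mESC cytoplasm and 1418 to 1620 CPM in mCtx cytoplasm, where 15 of them reached 10 CPM. Of 10 neuron markers, 2 reached 10 CPM in each fraction, with 1800.0 to 2124 CPM summed in chromatin and 612.8 to 764.9 CPM in cytoplasm, nearly all of it Map2 (mean 1886 and 644 CPM). The 5 astrocyte markers, all at 10 CPM or more in both fractions, summed to 154.5 to 214.4 CPM in chromatin and 167 to 262 CPM in cytoplasm. The 6 oligodendrocyte lineage markers summed to 272.8 to 292.2 and 114.8 to 156.5 CPM, with 3 at 10 CPM in chromatin, 4 in cytoplasm and Mog at 0 counts in chromatin. In mCtx cytoplasm the astrocyte markers summed to 183.2 to 217 CPM and the oligodendrocyte lineage markers to 16.6 to 20.8 CPM. The pluripotency factors Pou5f1, Zfp42 and Dppa5a had 0 counts in all 6 libraries, as did Csf1r, Aif1, C1qa and Hbb-bs among 6 microglia and blood markers, of which Cx3cr1 alone reached 10 CPM. In bulk samples, fewer cells of a type and less RNA per cell cannot be told apart.

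The gene counts cover the whole span of each gene, introns included, and 18249 genes entered the edgeR quasi-likelihood test, of which 756 had no count in any of the 6 libraries and were kept because other cell types express them. At a Benjamini-Hochberg adjusted p under 0.05, 12686 genes differed between chromatin and cytoplasm, which was 69.5% of those tested. Of these, 6753 (37.0%) were higher in chromatin and 5933 (32.5%) were lower, and in 73.8% of genes the 3 chromatin and 3 cytoplasm libraries did not overlap. The median log2 difference over all genes was 0.06. A fold change above 2 was tested with edgeR's threshold test, and 7642 genes passed it, 4123 higher and 3519 lower. With so many genes called, a count in any gene group is to be read beside these shares, which are not repeated for every group.

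The difference ran with gene span, as the plot of the difference by span shows. In protein-coding genes under 10 kb the median log2 difference was -1.22, and 2262 of 3815 genes were lower in chromatin (59.3%) against 455 higher (11.9%). In genes of 10 to 30 kb the median was -0.32, with 1139 of 4877 genes higher (23.4%) and 2114 lower (43.3%). In genes of 30 to 100 kb it was 0.44, with 2036 of 4386 higher (46.4%) and 982 lower (22.4%). In genes of 100 kb or more the median reached 1.83, with 1797 of 2264 genes higher (79.4%) and 91 lower (4.02%). With genes at 0 counts in 1 fraction placed at the bound that 3 counts per library allow, the 4 medians were -1.11, -0.25, 0.38 and 1.77. Across 15342 protein-coding genes, Spearman's rho of the log2 difference with span was 0.55, given as a description since genes of 1 library are not independent and share its depth.

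**Figure D1:**
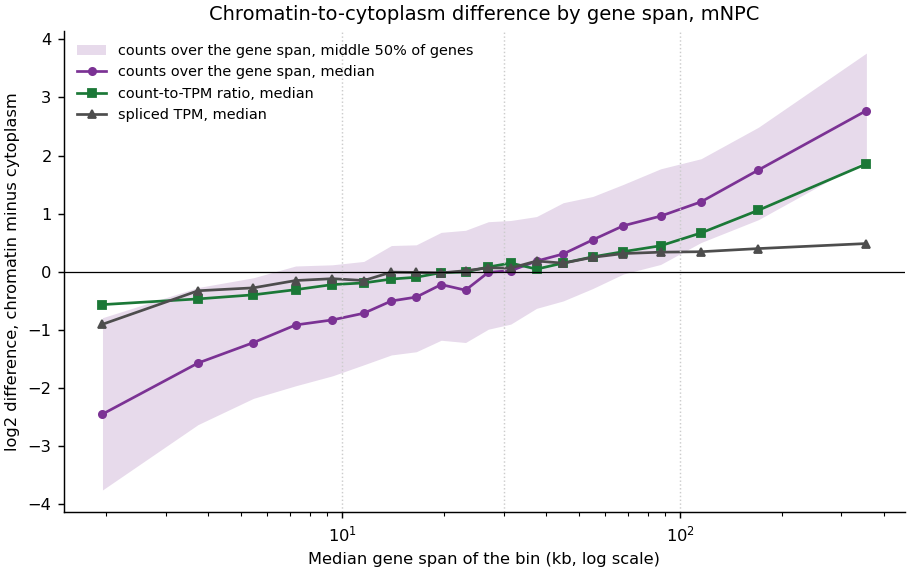
Median log2 difference (chromatin minus cytoplasm, y axis) of protein-coding genes in 20 bins of equal size by gene span (x axis, kb, log scale), for counts over the span, spliced TPM and their ratio, with the middle 50% of genes shaded for counts and dotted lines at 10, 30 and 100 kb. The count median goes from -2.45 in the shortest bin to 2.77 in the longest, while the TPM median goes from -0.91 to 0.48.

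The 4 classes kept this order in each of the 3 same-numbered pairs of libraries. Medians of the shortest class in the 3 pairs were -0.89, -0.84 and -0.86 on the log2 (CPM + 0.5) scale, and those of the longest class 1.57, 1.47 and 1.57, so the spread between pairs was small beside the step between classes. Over genes of every biotype, those of 100 kb or more took 39.2%, 37.6% and 37% of all counts in the chromatin libraries and 10.4%, 9.74% and 8.62% in the cytoplasm. Genes of every biotype under 10 kb, abundant noncoding RNAs included, took 14%, 14.8% and 15.1% in chromatin and 39.3%, 40.9% and 44.8% in cytoplasm. In neither class did the 2 fractions overlap. Among protein-coding genes under 10 kb, the 390 with a single exon had a median of -1.51 and the 3425 with several exons -1.18, so the low end was not limited to genes without introns.

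Transcript abundances in TPM, which the submitters deposited beside the counts and which are taken here as a measure of spliced transcripts, showed a smaller step with span. By limma on log2(TPM + 1), 15357 of 25256 genes differed (60.8%), 11065 (43.8%) higher in chromatin and 4292 (17.0%) lower, and this scale understates the change of low genes. With a pseudocount of 0.1 the median of all genes moved by 0.29. Medians by span were not recomputed with it, so how far the smaller step depends on the pseudocount was not tested. Over the 4 span classes the TPM medians were -0.26, 0.00, 0.21 and 0.41. Rescaling TPM by the median ratio of genes moved the median of all genes by -0.13 and gave class medians of -0.69, -0.33, -7.58e-05 and 0.19. It left 10802 genes higher and 6421 lower. Lists of abundant mRNAs moved further, with the ribosomal protein median going from -4.45 to -5.03 and that of glycolysis genes from -2.17 to -2.74. TPM differences of single genes are given without rescaling. The ratio of span counts to spliced TPM, centred on the median gene of each library, differed in 10294 of 15408 genes (66.8%), 5384 (34.9%) higher in chromatin and 4910 (31.9%) lower. Its medians over the 4 classes were -0.39, -0.06, 0.23 and 1.11. The zero of this ratio depends on the centring. Centred on single-exon genes, which hold no introns, 9687 genes were higher and 1628 lower, and with no centring 3530 were higher and 5408 lower.

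Long noncoding RNAs known to stay in the nucleus were higher in chromatin, 8 of 9 tested with none lower, and their median was 3.10. Malat1, an abundant RNA of nuclear speckles (chromosome 19, 5795690 to 5802671, mm10), stood at 21651, 21556 and 20779 CPM in the chromatin libraries and 1314, 1397 and 1406 CPM in the cytoplasm. The fractions did not overlap, and the log2 fold change was 3.96 ± 0.29 (SE; adjusted p = 3.23e-12). Neat1, the scaffold of paraspeckles, had 22.5, 26.6 and 25.8 CPM in chromatin against 1.89, 1.89 and 1.15 CPM in cytoplasm, with a log2 fold change of 3.89 ± 0.42 (adjusted p = 4.57e-09). Xist, which coats the inactive X chromosome, had 2139.5, 1890.2 and 1704 CPM against 56.1, 60.2 and 52.2 CPM, with no overlap, although the span of its antisense partner Tsix covers it and reads of the pair cannot be told apart where strand was not counted. Meg3, a maternally expressed RNA, was low, with 25 counts over the chromatin libraries and 2 over the cytoplasm, a ratio of 13 with a 95% counting interval of 3.23 to 113. Tug1 was the exception, with 96.4, 120.2 and 105 CPM in chromatin and 137, 130 and 112 CPM in cytoplasm (log2 fold change -0.24 ± 0.18, adjusted p = 0.246).

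Among annotated classes of noncoding genes, several had more members higher than lower, where the shares of all genes tested were 37.0% and 32.5%. Of 315 lincRNA genes 137 were higher and 20 lower (median 1.51, or 0.63 with genes at 0 counts placed at their bound), and of 460 antisense genes 212 were higher and 28 lower. Most of the span of 216 of the antisense genes is shared with another tested gene, and their reads cannot be told apart where strand was not counted. The class of miscellaneous RNAs had 12 of 32 higher and 11 lower, near the shares of all genes tested. All 58 genes annotated as sense intronic lie mostly within other tested genes, and 48 of them were higher with none lower, but their reads cannot be told apart from those of the genes around them. Processed pseudogenes, which are copies of spliced mRNAs, went the other way, with 123 of 445 higher and 210 lower. Reads that fit both a pseudogene and its parent make their counts uncertain.

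Small nucleolar RNAs guide chemical marks on ribosomal RNA and are cut from introns of host genes. Of 120 listed genes for them, 96 were higher in chromatin and 1 lower (median 2.04). Of all 309 tested genes annotated as snoRNAs, 229 were higher and 4 lower, and other tested genes cover most of the span of 244. Snord17 had 881, 951 and 808 CPM in chromatin and 6.83, 6.36 and 7.7 CPM in cytoplasm (log2 fold change 6.98 ± 0.41, adjusted p = 3.18e-14). Snora57 was the 1 listed gene called lower, with 17.7, 19.3 and 19.3 CPM against 35.5, 36.7 and 47.2 CPM. Its TPM pointed the other way, with a log2 difference of 2.48. Most snoRNAs lie wholly inside a host gene and are near or under the length kept in the libraries, so reads at these loci may be of the host. Among 10 host genes 5 were higher and 3 lower, the latter near the share of all genes tested. Zfas1, a host with an exported spliced product, had 21, 23.4 and 22 CPM in chromatin and 80.2, 67.4 and 76.7 CPM in cytoplasm (log2 fold change -1.75 ± 0.26).

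MicroRNA loci gave a view of transcripts that are cut in the nucleus before export, because the mature RNAs and hairpins are shorter than the 200 nt kept, so that reads there are taken as reads of longer RNA. Of 271 microRNA genes tested, 194 matched a RefSeq sequence by symbol (GRCm38.p6), and 67 of these had a mean of 1 CPM or more in either fraction. Of the 67, 33 were higher in chromatin and 21 lower, the latter near the share of all genes tested. Another tested gene covered most of the locus in 23 of the higher and 19 of the lower. The loci shown were chosen after their values were seen, from families known in neural progenitors, and group by their seed, bases 2 to 8 of the mature RNA, printed in capitals. The let-7 family shares 1 seed.
let-7b-5p: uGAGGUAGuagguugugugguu
let-7c-5p: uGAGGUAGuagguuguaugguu
let-7d-5p: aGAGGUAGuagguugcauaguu
The family of miR-15 and miR-16 shares another.
miR-15a-5p: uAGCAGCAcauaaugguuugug
miR-15b-5p: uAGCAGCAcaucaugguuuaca
miR-16-5p: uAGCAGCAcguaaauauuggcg
The pair miR-20a and miR-93 comes from separate clusters with a common seed, and miR-9 is a brain microRNA made from several loci.
miR-20a-5p: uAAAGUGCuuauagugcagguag
miR-93-5p: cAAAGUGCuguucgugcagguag
miR-9-5p: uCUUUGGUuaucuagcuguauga

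The 3 let-7 loci were higher in chromatin. Mirlet7b (chromosome 15, 85707319 to 85707403), in no other tested gene, had 1.48, 1.59 and 1.24 CPM in chromatin and 0.158, 0.216 and 0.144 CPM in cytoplasm (log2 fold change 2.99 ± 0.44, adjusted p = 2.64e-06). Mirlet7d (chromosome 13, 48536012 to 48536114), also outside other tested genes, had 1.72, 1.53 and 2.9 CPM against 0.105, 0.216 and 0.216 CPM (log2 fold change 3.48 ± 0.53). Mirlet7c-1 lies within Gm11146 and had 141 counts in chromatin against 2 in cytoplasm, a ratio of 73.1 with a 95% counting interval of 19.9 to 610. No library of 1 fraction reached into the range of the other at any of these 3 loci.

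The miR-15 and miR-16 loci behaved alike in direction. Mir15a (chromosome 14, 61632027 to 61632110) had 3.97, 3.45 and 4.42 CPM in chromatin and 0.105, 0.216 and 0.072 CPM in cytoplasm (log2 fold change 4.79 ± 0.55, adjusted p = 1.43e-08). At Mir16-1 the ratio was 33.2 with an interval of 8.82 to 280, from 64 and 2 counts. Mir15b, within the chromosome condensation gene Smc4, had no cytoplasmic count and was at least 10.1-fold higher in chromatin, taking 3 counts per library as the floor. Mir20a, in the Mir17hg transcript, had a ratio of 19.4 (interval 6.3 to 96.7). Mir93, within the replication helicase gene Mcm7, had a log2 fold change of 4.77 ± 0.56, while Mcm7 itself was called lower, at -0.70. These intervals cover counting error only.

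The 2 miR-9 loci, which give the same mature sequence, differed in level of separation. Mir9-3 (chromosome 7, 79505264 to 79505353), in no other tested gene, had 3.44, 3.62 and 2.49 CPM in chromatin and 0.526, 0.27 and 0.216 CPM in cytoplasm (log2 fold change 3.18 ± 0.46), and Mir9-2, within the noncoding gene C130071C03Rik, had 5.93, 9.37 and 6.22 CPM against 3.47, 3.4 and 3.74 CPM (log2 fold change 1.02 ± 0.25). The difference between the loci was not tested. Mir686 was lower in chromatin, with 1.54, 1.26 and 1.17 CPM against 40, 48.4 and 46.3 CPM, and lies wholly within the proteasome gene Psmb5, whose own log2 fold change was -4.30 ± 0.13.

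Genes of axon guidance and neural adhesion had the highest median of the 28 gene lists. Of 43 members, 33 were higher in chromatin and 1 lower, and the median log2 difference was 3.72 (3.41 with the 1 member at 0 cytoplasmic counts placed at its bound). The members are long, with a median span of 572622 bases. Each gene's difference minus the median of its span class had a median of 1.89, and 36 of the 43 lay above their class, though the longest class is open at its upper end. By TPM the median was 0.88, with 31 higher and none lower, and by the count-to-TPM ratio 2.56. The TPM median depended on the pseudocount, and with 0.1 in place of 1 it was 1.86, with 33 higher. Rescaled by the median ratio of genes, TPM gave a median of 0.57, with 30 higher and 3 lower.

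Csmd1, a complement regulator of neurons (chromosome 8, 15892537 to 17535586) with a span of 1643050 bases, had 859.8, 690.3 and 569 CPM in chromatin and 6.41, 6.69 and 6.34 CPM in cytoplasm. Its log2 fold change was 6.77 ± 0.29 (adjusted p = 7.44e-17). Its spliced TPM went from 0.18, 0.17 and 0.05 in cytoplasm to 3.36, 3.19 and 2.36 in chromatin. The log2 difference of TPM + 1 was 1.80, a scale that understates the change of a TPM this low. Dcc, the netrin receptor, had 1980.1, 2008 and 1634 CPM against 19.2, 18.3 and 15.3 CPM (log2 fold change 6.73 ± 0.26, adjusted p = 5.84e-18). Nrxn3, a presynaptic adhesion protein, had 433, 472 and 428 CPM against 4.84, 4.37 and 4.32 CPM (log2 fold change 6.62 ± 0.23). In all 3 genes every chromatin library was above every cytoplasm library. Among guidance ligands and receptors, the repulsive ligand Slit2 was at 4.08, its receptors Robo1 and Robo2 at 3.41 and 4.33, and the netrin receptors Unc5c and Unc5d at 4.36 and 3.93 on the log2 scale, all called higher. Netrin itself, Ntn1, was at 0.54, the ligand Slit3 at 1.76 and the receptor Unc5a at -0.28, none of them called, and the receptor Unc5b was the 1 member called lower, at -0.87. The synaptic neuroligins split, with Nlgn1 at 5.99 and called higher, and Nlgn2 at -0.31 ± 0.16 (adjusted p = 0.082, or 0.0267 with the replicate number as a block and 0.0269 without chromatin replicate 3).

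**Figure D2:**
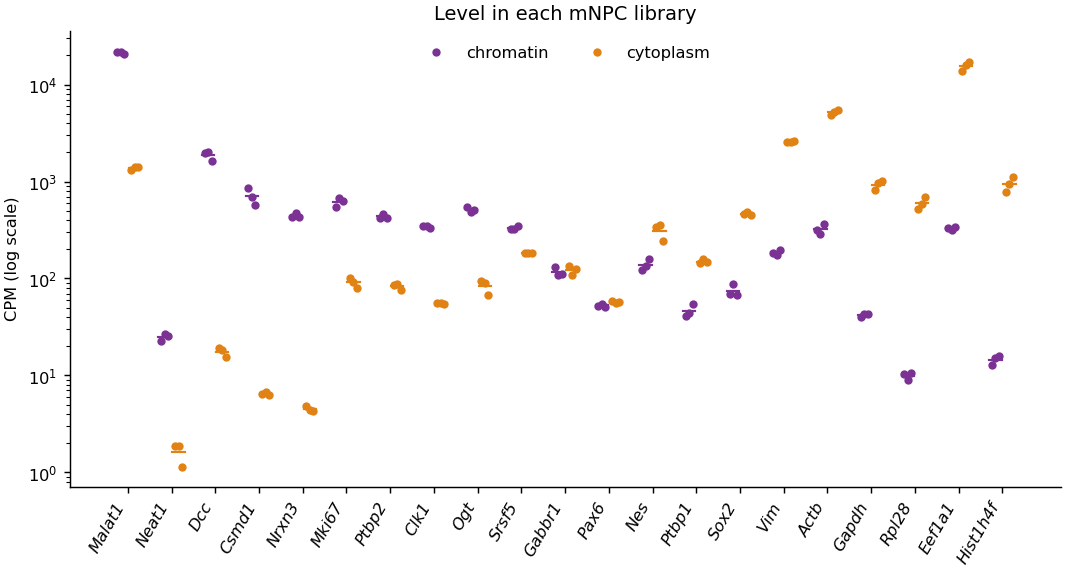
CPM (y axis, log scale) of 21 genes in the 3 chromatin and 3 cytoplasm libraries of mNPC, with 1 point per library and a bar at the group mean. Malat1 and the long adhesion genes on the left sit higher in chromatin, Gabbr1 overlaps between fractions, and the mRNAs from Nes to Hist1h4f sit higher in cytoplasm.

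Not every long gene was higher in chromatin. Rab31, a small GTPase of vesicle traffic (chromosome 17, 65651726 to 65772752) with a span of 121027 bases, had 84.2, 77.2 and 75.1 CPM in chromatin and 933, 1171 and 1104 CPM in cytoplasm (log2 fold change -3.76 ± 0.13, adjusted p = 2.08e-18; by TPM -3.97). Sept9, a septin of the cytoskeleton with a span of 162665 bases, had 70.9, 76.9 and 87.3 CPM against 567, 659 and 679 CPM (log2 fold change -3.02 ± 0.22). Slc22a27, an organic anion transporter gene, was lower in chromatin with 5 counts against 580, while its TPM was listed at 0 in all 6 libraries, so its counts had no match in the spliced table. The first 2 genes show the same direction by both measures and with no overlap between fractions.

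Among shorter genes, those highest in chromatin included 2 clustered protocadherins, adhesion genes in tandem clusters that give neurons surface identity. Of 23 clustered protocadherins tested, 22 were higher in chromatin and none lower, with a median of 2.10 and a median span of only 3506 bases. Pcdhb16 had 23.7, 26.4 and 25.2 CPM in chromatin and 2.05, 1.56 and 1.8 CPM in cytoplasm (log2 fold change 3.79 ± 0.19, adjusted p = 5.17e-15). Pcdhb19 had 48.8, 54.7 and 50.4 CPM against 7.41, 5.23 and 3.82 CPM (log2 fold change 3.21 ± 0.19). The pair was also high in the nucleoplasm, at 38 ± 5.49 and 94.2 ± 12.1 CPM (SD, n = 3). By TPM 19 of 22 members were higher and none lower. The members share sequence and lie side by side, so reads may be split between them.

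Zinc finger genes with symbols of the Zfp900 series, many of them KRAB-type repressors of transposons, showed a like pattern. Of 59 tested, 48 were higher in chromatin and 2 lower. Their median was 2.08, or 1.61 with 7 genes at 0 cytoplasmic counts placed at their bound, and 39 of 58 were higher by TPM with 1 lower. Zfp975 had 33, 30.7 and 25.3 CPM in chromatin and 2.58, 3.77 and 2.45 CPM in cytoplasm (log2 fold change 3.33 ± 0.21, adjusted p = 1.77e-13), and Zfp954 was lower, with 9.67, 10.6 and 10.9 CPM against 17.5, 18 and 17.4 CPM (log2 fold change -0.76 ± 0.14). Members of this family share long repeats, and their counts are uncertain where reads fit several copies.

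The other genes with the largest chromatin excess in their span class were of varied kinds. Under 10 kb, Itgb1bp2, a muscle integrin-binding protein, had 9.25, 10.9 and 13.2 CPM against 0.683, 0.917 and 0.792 CPM (log2 fold change 3.79 ± 0.31). From 10 to 30 kb they were Platr25 (27.5, 25.8 and 31.1 CPM against 0.894, 1.51 and 1.58 CPM), BC005561 (log2 fold change 4.05 ± 0.16) and 1700109H08Rik (4.01 ± 0.23). From 30 to 100 kb they were the amylase gene Amy1 (4.26 ± 0.25), the mitochondrial calcium uptake protein Micu3 (4.10 ± 0.14) and the complement regulator Cd46 (4.04 ± 0.28). Each had all 3 pairs higher in chromatin and was higher by TPM as well.

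Ribosomal protein genes had the lowest median of the gene lists, with replication-dependent histone genes next. Of 82 ribosomal protein genes, 79 were lower in chromatin and none higher, with a median log2 difference of -4.89. The 3 not called, Rpl10l, Rpl39l and Rpl3l, are variant copies at or near 0 counts. Rpl28, a protein of the large subunit (chromosome 7, 4792874 to 4794562), had 10.3, 8.93 and 10.5 CPM in chromatin and 526, 588 and 689.7 CPM in cytoplasm (log2 fold change -5.93 ± 0.20, adjusted p = 1.01e-18; by TPM -4.93). Rps23, of the small subunit, had 15.5, 18.7 and 19.5 CPM against 842, 998 and 1113 CPM (log2 fold change -5.78 ± 0.20). In the list Rpl7l1 and Rps3, at -1.77 and -2.87, were the least separated of the members above 10 CPM. The ribosomal protein genes were also lower than their span class, with a median of -3.74 after the class median was subtracted.

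Of 60 translation factor genes, 45 were lower in chromatin and 10 higher (median -1.71, or -1.63 with 1 gene at its bound). Eef1a1, which brings tRNAs to the ribosome, had 335, 316 and 341 CPM in chromatin and 13940, 15872 and 17032 CPM in cytoplasm (log2 fold change -5.56 ± 0.21, adjusted p = 6.53e-18). Eif5a was similar at -5.11 ± 0.19. Eif4a2, a helicase of initiation that hosts snoRNAs, went the other way, with 1600, 1606 and 1713 CPM against 232, 218 and 244 CPM (log2 fold change 2.82 ± 0.18; by TPM 1.91). The stress kinases of this list, Eif2ak3 and Eif2ak4, which slow initiation, were among the higher members at 1.23 and 1.33.

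Genes of energy metabolism were also mostly lower in chromatin. Of 77 nuclear genes of oxidative phosphorylation, 75 were lower in chromatin and none higher (median -3.28). Atp5e, a small subunit of ATP synthase, had 5.99, 6.57 and 5.18 CPM in chromatin and 242, 285 and 296 CPM in cytoplasm (log2 fold change -5.53 ± 0.16, adjusted p = 1.54e-19). Ndufs4, a complex I subunit with a span of 100300 bases, was not called by counts, with 109, 106 and 99 CPM against 88.7, 99.5 and 101 CPM (adjusted p = 0.37), yet its spliced TPM was lower by -2.03 on the log2 scale (adjusted p = 2.21e-09). Of 17 glycolysis genes 14 were lower and 2 higher, with Tpi1 at -4.86 ± 0.25, Ldha at -4.73 ± 0.33 and Gapdh at -4.47 ± 0.17, while the phosphofructokinase Pfkp was higher at 0.95 ± 0.17. Gapdh had 39.7, 43.3 and 42.5 CPM in chromatin and 819, 961 and 1010.3 CPM in cytoplasm. Of 38 proteasome subunit genes 36 were lower and none higher, with Psmb5 at -4.30 ± 0.13 and Psmd14, of 88683 bases, at 0.11 ± 0.16 and not called.

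Genes encoded by mitochondria did not follow the nuclear genes of the same pathway. Of 29 tested, 6 were higher in chromatin and 2 lower, and the median was 0.24. Many of the 29 are tRNA genes under 1 CPM, and mt-Ta, mt-Tl2 and mt-Tn, called higher, are among them. mt-Co1 had a mean of 1036 CPM in chromatin and 954.6 CPM in cytoplasm and was not called. mt-Co2 was at 0 CPM in both fractions, and mt-Atp6 and mt-Co3 were at 0 CPM in chromatin and under 0.1 CPM in cytoplasm. mt-Cytb, a subunit of complex III, had 141, 62.1 and 89.1 CPM in chromatin and 75.5, 67.8 and 105 CPM in cytoplasm (adjusted p = 0.438), and mt-Nd1, of complex I, had 109, 58.8 and 77.8 CPM against 74.7, 66.3 and 108 CPM (adjusted p = 0.989). The chromatin libraries of these genes spread over the range of the cytoplasm libraries, and the part of mitochondria in the chromatin pellet was not tested. mt-Nd5 was called higher (0.66 ± 0.27), and leaving out chromatin replicate 1, cytoplasm replicate 1 or cytoplasm replicate 2 raised its adjusted p to 0.348, 0.107 and 0.133.

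Histone genes that are switched on with DNA replication make short mRNAs without introns or poly(A) tails. Of 60 tested, 55 were lower in chromatin and 1 higher, with a median of -4.63 (-4.61 with 3 genes at 0 chromatin counts at their bound). Hist1h4f had 12.7, 15.3 and 15.8 CPM in chromatin and 773, 949.9 and 1120.2 CPM in cytoplasm (log2 fold change -6.02 ± 0.37, adjusted p = 7.43e-14), and Hist2h4 had 4.27, 5.97 and 5.66 CPM against 277, 312 and 416 CPM. By TPM 53 of 60 were lower and 1 higher. The copies are near-identical, and how reads that fit several were counted is not given in the sources used here.

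Other genes with the largest cytoplasmic excess in their span class were Rpl11 (-4.78 ± 0.15), Kxd1 (-4.84 ± 0.18, with 14% of its span shared with other tested genes), Hist1h2be (-4.61 ± 0.17) and Cotl1, an actin-binding protein, at 12.7, 14.8 and 16.2 CPM in chromatin and 192, 233 and 239 CPM in cytoplasm (log2 fold change -3.92 ± 0.12). Actb, cytoplasmic actin, had 316, 290 and 366 CPM against 4859.9, 5238 and 5408 CPM (log2 fold change -4.00 ± 0.21, adjusted p = 3.64e-15). None of these overlapped between fractions.

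Of 4 structured noncoding RNAs, 2 were lower in chromatin by counts and none higher, and by TPM 2 were lower and 2 higher. With TPM rescaled by the median ratio of genes, 2 were lower and 1 higher. Rn7sk, the 7SK RNA that restrains transcription elongation in the nucleus, had 4962, 5918 and 4861 CPM in chromatin and 34843, 33324 and 46425 CPM in cytoplasm (log2 fold change -2.86 ± 0.28, adjusted p = 6.41e-10). Rpph1, the RNA of ribonuclease P, had 458, 550.4 and 510.2 CPM against 22742, 25172 and 34058 CPM (log2 fold change -5.75 ± 0.29, adjusted p = 1.79e-15). Rmrp, the RNA of ribonuclease MRP, overlapped between fractions, with 11070, 13331 and 13892 CPM against 10368, 10568 and 14099 CPM (adjusted p = 0.702), and the telomerase RNA Terc was at 0.51 ± 0.29 (adjusted p = 0.119, or 0.0201 with the replicate number as a block). Rn7sk and Rpph1 made up 3.95% ± 0.66 and 2.82% ± 0.54 of the cytoplasmic counts (SD, n = 3), and Rmrp 1.21% ± 0.19. In chromatin Malat1 made up 2.50% ± 0.03 of the counts, Rmrp 1.499% ± 0.19 and Rn7sk 0.615% ± 0.068. Rn7sk and Rpph1 are known as nuclear RNAs, and the part of nuclear RNA released into the cytoplasm during fractionation was not tested.

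Genes with detained introns, spliced late and held in the nucleus as polyadenylated RNA, were higher in chromatin. Of 33 listed, 28 were higher and 3 lower, with a median of 1.28 by counts and 1.86 by TPM. Rescaled by the median ratio of genes, TPM gave a median of 1.36, with 25 higher and 5 lower. The count-to-TPM ratio of these genes was lower in chromatin in 25 of 33 (median -0.44), with 4 higher, and with no centring 25 were lower and 1 higher. Centred on single-exon genes the direction turned, with 14 higher and 4 lower (median 0.10). Clk1, a kinase of splicing factors, had 348, 345 and 328 CPM in chromatin and 56.3, 55.3 and 54.6 CPM in cytoplasm (log2 fold change 2.62 ± 0.15, adjusted p = 1.64e-14; by TPM 3.47). Ogt, which adds GlcNAc to proteins, had 552, 489.9 and 513 CPM against 93.7, 89.9 and 68.3 CPM (log2 fold change 2.63 ± 0.13; by TPM 3.28). The splicing factor gene Srsf5 was higher by 0.86 ± 0.10, with 323, 324 and 352 CPM against 185, 185 and 181 CPM. Its relatives Srsf2, Srsf3 and Srsf7 were the 3 called lower, at -0.63, -0.47 and -0.33, and another tested gene covers Srsf2 wholly.

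Core spliceosome genes as a whole went the other way, with 36 of 50 lower and 12 higher (median -1.11). The small Sm protein Snrpd2 had 6.05, 5.31 and 4.83 CPM in chromatin and 167, 207 and 214 CPM in cytoplasm (log2 fold change -5.18 ± 0.18). Prpf39 and the kinase Prpf4b were higher, at 3.33 ± 0.14 and 2.87 ± 0.17. Of 25 nuclear pore genes 8 were higher and 6 lower, near the shares of all genes, from Sec13 at -1.75 ± 0.12 to Tpr, a large protein of the nuclear basket, at 2.28 ± 0.20.

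**Figure D3:**
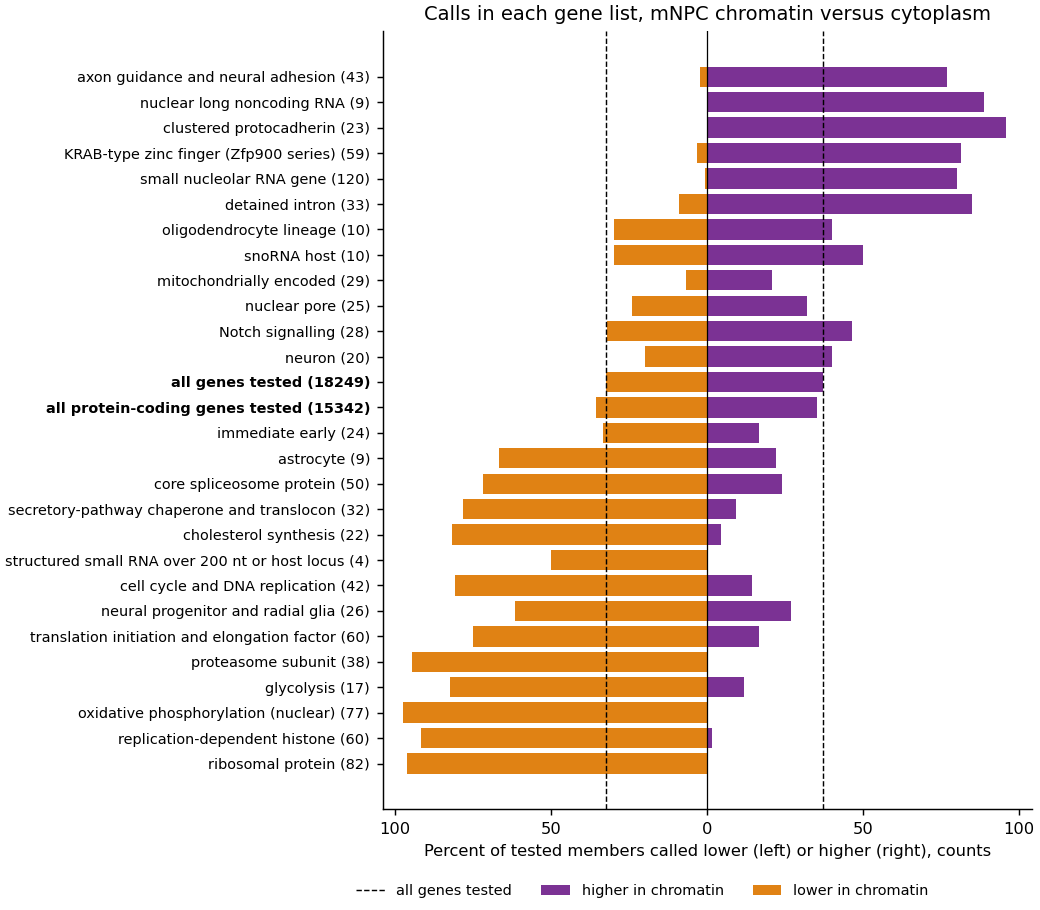
Percent of tested members of each gene list called higher (right) or lower (left) in mNPC chromatin by counts, with the number of tested members in brackets, ordered by median log2 difference, and dashed lines at the shares of all genes tested (37.0% and 32.5%). Axon guidance, nuclear noncoding RNA, protocadherin and zinc finger lists lie at the higher end and ribosomal protein, histone and oxidative phosphorylation lists at the lower end.

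Genes that mark neural progenitors were mostly lower in chromatin, with exceptions. Of 26 tested, 16 were lower in chromatin and 7 higher (median -1.51), where the shares of all genes tested were 32.5% and 37.0%. Sox2, a transcription factor of stem and progenitor cells, had 69.3, 87.5 and 67 CPM in chromatin and 465, 484 and 451 CPM in cytoplasm (log2 fold change -2.64 ± 0.14, adjusted p = 4.70e-15), and an overlapping gene covers its whole span. Vim, an intermediate filament protein, had 183, 177 and 197 CPM against 2566, 2559.8 and 2618 CPM (log2 fold change -3.80 ± 0.15), and Nes, nestin, had 121, 134 and 157 CPM against 339, 354 and 241 CPM (log2 fold change -1.18 ± 0.21, adjusted p = 1.17e-05). Short factor genes followed, with Olig1 at -3.99 ± 0.18 and Sox3 at -3.91 ± 0.29.

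The higher members of this list were long genes of the cell surface and of signalling. The phosphatase receptor Ptprz1 had 2908, 3315 and 2950.4 CPM in chromatin and 337, 297 and 281 CPM in cytoplasm (log2 fold change 3.33 ± 0.18, adjusted p = 5.47e-15; by TPM 3.23). N-cadherin, Cdh2, had 401, 439.6 and 352 CPM against 31.2, 30.3 and 32.2 CPM (log2 fold change 3.67 ± 0.29; by TPM 1.35), and the EGF receptor Egfr was at 3.02. Pax6, a factor of cortical progenitors, was not called, with 52.2, 55 and 51.2 CPM against 59, 55.8 and 57.2 CPM (log2 fold change -0.12 ± 0.21, adjusted p = 0.647). The libraries of Pax6 lay side by side, from 51.2 to 55 CPM in chromatin and from 55.8 to 59 CPM in cytoplasm.

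The Notch pathway holds progenitors back from becoming neurons through ligands, receptors and repressor targets. Of 28 tested, 13 were higher in chromatin and 9 lower, near the shares among all genes tested (37.0% and 32.5%). The ligands Dll1 and Jag1 were higher at 1.14 and 1.84, while Jag2 was at -0.14 and not called, and the receptors Notch1 and Notch2 at 1.31 and 2.07. The coactivators Maml2 and Maml3 were at 2.63 and 2.74, and the DNA-binding partner Rbpj at 1.24. Of the target genes, Hes5, Hey1 and Hes1 were lower at -3.55, -2.25 and -1.32, and Hey2 and Heyl, at 0.14 and -0.64, were not called. The glycosyltransferases Lfng, Mfng and Rfng, which modify Notch receptors, were lower at -0.61, -1.03 and -1.07, as were the gamma-secretase subunit Aph1a (-2.01) and Numbl (-0.87). Hes5 had 43.9, 50 and 44.6 CPM in chromatin and 488, 527 and 609.8 CPM in cytoplasm, and Notch2 293, 232 and 239 CPM against 72.9, 56.1 and 52.6 CPM, with no overlap at either gene. Their spans were 1449 bases in Hes5 and 136830 in Notch2. Differences between roles were not tested.

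The splicing regulators of neuronal fate differed from each other. Ptbp1, which represses neuronal exons in progenitors (chromosome 10, 79854427 to 79864771), had 40.9, 43.9 and 54.4 CPM in chromatin and 143, 159 and 147 CPM in cytoplasm (log2 fold change -1.69 ± 0.17, adjusted p = 1.21e-09). Other tested genes share 46.7% of its span, and its spliced TPM was not called at -0.41 (adjusted p = 0.181). Ptbp2, its neuronal relative (chromosome 3, 119718742 to 119783388), had 417, 467 and 424 CPM against 85.9, 86.8 and 76.4 CPM (log2 fold change 2.39 ± 0.15, adjusted p = 1.74e-13), and its spliced TPM was 31.7, 36.3 and 34.7 in chromatin and 11.5, 9.64 and 7.08 in cytoplasm. Gabbr1, a GABA receptor subunit (chromosome 17, 37045966 to 37075067), overlapped between the fractions by counts, with 132, 109 and 111 CPM against 135, 109.5 and 124 CPM (log2 fold change -0.07 ± 0.15, adjusted p = 0.732). By TPM its chromatin libraries, at 24.1, 21.3 and 22.2, were all above the cytoplasm libraries, at 12.3, 9.66 and 8.05 (log2 difference 1.11, adjusted p = 0.00204).

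Genes of the cell cycle and DNA replication were mostly lower in chromatin, 34 of 42, with 6 higher. The cyclins Ccnd1 and Ccnd2 were at -3.06 ± 0.36 and -3.41 ± 0.44. Mki67, a coat protein of mitotic chromosomes, was the opposite, with 545, 669 and 624 CPM in chromatin and 102, 92.9 and 79.3 CPM in cytoplasm (log2 fold change 2.74 ± 0.17, adjusted p = 7.43e-14; by TPM 3.42), and the polymerase subunit Pola1, of 327389 bases, was higher at 2.12 ± 0.14. Of 32 secretory chaperone and translocon genes 25 were lower and 3 higher, and of 22 cholesterol synthesis genes 18 were lower and 1, Hsd17b7, higher at 1.14 ± 0.18. Of 24 immediate early genes 4 were higher and 8 lower (median -0.35, or -0.18 with 1 gene at its bound), and the share lower was near that of all genes tested. Egr1, an activity-induced factor, spread widely, with 29.1, 14.1 and 93 CPM in chromatin and 5.99, 5.07 and 79.9 CPM in cytoplasm (log2 fold change 0.59 ± 0.78, adjusted p = 0.523). Its log2 fold change was 1.24 (adjusted p = 6.26e-05) with the replicate number as a block and 3.02 (adjusted p = 0.0018) without cytoplasm replicate 3.

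Lists of other brain cell types were small. Of 20 neuron genes 8 were higher in chromatin, a share near that of all genes tested, and 4 were lower, with Syt1, a calcium sensor of synaptic vesicles, at 4.10 ± 0.23, Map2, of dendrites, at 1.55 ± 0.20 and Tubb3, a neuronal tubulin, at -3.35 ± 0.21. Of 9 astrocyte genes 2 were higher and 6 lower, with Slc1a2 at 1.81 ± 0.25 and Aldoc at -3.06 ± 0.17. Of 10 oligodendrocyte lineage genes 4 were higher and 3 lower, near the shares of all genes tested. The spans were 513333 bases in Syt1, 267311 in Map2 and 10592 in Tubb3.

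Counts over the span and spliced TPM were set side by side in 13562 protein-coding genes. Both called 3384 genes higher in chromatin and 3466 lower, 1380 were higher by counts with no call by TPM, and 1632 were lower by counts with no call by TPM. Opposite calls were made in 203 genes higher by counts and lower by TPM and in 174 the other way. These calls use TPM without rescaling, and they were not recounted with rescaled TPM. Of the 203, 106 were in the class of 100 kb or more, and of the 174, 81 were under 10 kb. In the longest class 545 genes were higher by counts alone, against 67 in the shortest.

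**Figure D4:**
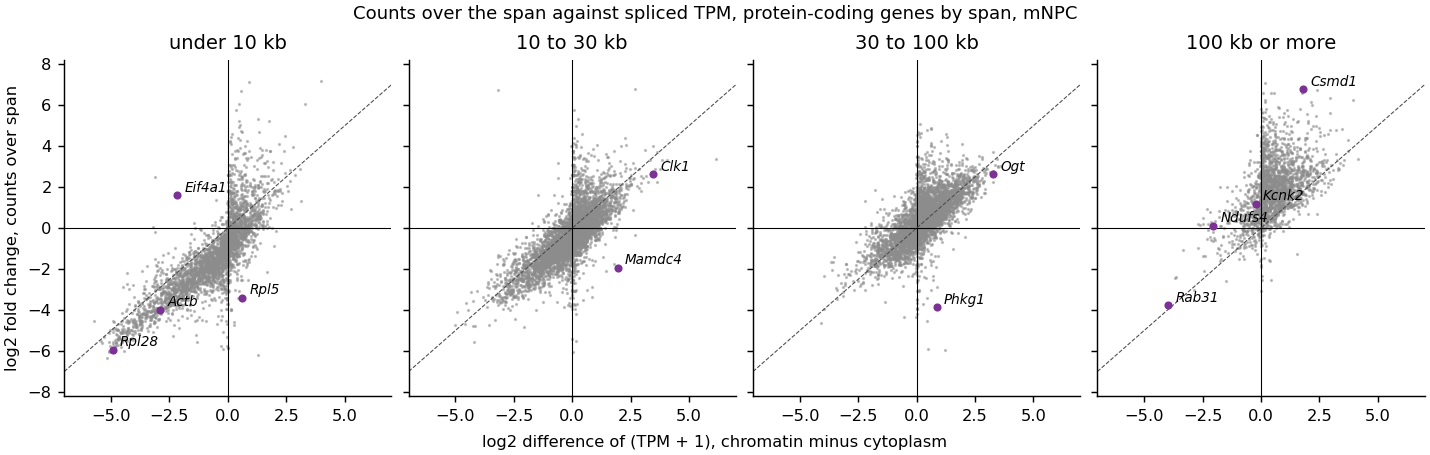
Log2 fold change by counts over the span (y axis) against the log2 difference of TPM + 1 (x axis) for protein-coding genes in 4 span classes, 1 point per gene, with the line of equal change dashed and 12 genes labelled. Points move up from the shortest to the longest class, and Csmd1 lies far above the line while Rab31 lies near it.

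Of the 5 genes with the widest gap between opposite calls, 4 are described. Eif4a1, a helicase of translation initiation (chromosome 11, 69666936 to 69672423), had 2882, 2766 and 2677 CPM in chromatin and 817, 971 and 959 CPM in cytoplasm, while its spliced TPM was 30.3, 32.7 and 39.3 in chromatin and 157, 176 and 138 in cytoplasm. Its log2 difference was 1.60 ± 0.23 by counts and -2.17 by TPM, and 3 small genes lie within 7.85% of its span. Phkg1, a phosphorylase kinase subunit, was lower by counts (-3.87 ± 0.18) and higher by TPM (0.86), and Chchd2, Sumf2 and Zbed5 share 27.8% of its span. Mamdc4 (-1.94 ± 0.11 by counts, 1.95 by TPM) and Rpl5 (-3.39 ± 0.14 by counts, 0.61 by TPM) went the same way, with 12.1% and 15.4% of the span shared. With TPM rescaled by the median ratio of genes, no ribosomal protein gene was called higher, Rpl5 included. The part of overlapping genes in these counts was not tested.

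The contrast in mNPC was set against the same contrast in mESC and in mCtx by the difference of the 2 log2 fold changes. The difference from mESC passed in 7337 of 18249 genes (40.2%), 3047 (16.7%) higher and 4290 (23.5%) lower in mNPC, and the difference from mCtx in 6204 (34.0%), 3977 (21.8%) higher and 2227 (12.2%) lower. Both comparisons use the same mNPC libraries. The split depends on scaling. Against mESC, scaling by total counts moved the median of all genes by -0.29 and gave 1940 higher and 5669 lower. Against mCtx, median-ratio size factors moved it by -0.24 and gave 2775 higher and 3189 lower, DESeq2 gave 2885 and 3422, and total counts moved it by 0.74 and gave 9187 and 537.

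Single genes differed by more than these shifts. Pde4d, a cAMP phosphodiesterase (chromosome 13, 108449948 to 109953461) of 1503514 bases, had 579, 515 and 524 CPM in mNPC chromatin and 38.2, 34.9 and 30.1 CPM in mNPC cytoplasm. In mESC it stood at 289 ± 22.6 CPM in chromatin and 452 ± 36.4 CPM in cytoplasm (mean ± SD, n = 3), so the log2 fold change was 3.97 in mNPC and -0.65 in mESC, a difference of 4.62 (adjusted p = 4.22e-16). Kcnk2, a potassium channel, was higher in chromatin in mNPC (1.20 ± 0.18) and lower in mESC (-3.45), and Nos1ap, an adaptor of neuronal nitric oxide synthase, was at 4.45 in mNPC and 1.03 in mESC. The opposite held for Serpine2, a secreted protease inhibitor, with 222, 204 and 224 CPM in mNPC chromatin against 526, 493 and 674 CPM in cytoplasm, and 26.4 ± 9.05 against 4.1 ± 1.94 CPM in mESC. Its difference was -4.06 (adjusted p = 5.87e-09). Reep3, a protein of the endoplasmic reticulum, and the sulfotransferase Hs6st2 were also lower in mNPC, by differences of -3.65 and -3.56.

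Against mCtx, Mllt11, a small protein of neurons, was higher in mNPC chromatin (31.3, 30.6 and 28.2 CPM against 10.8, 10 and 12.3 CPM) and lower in mCtx chromatin (41.8 ± 1.42 against 390.4 ± 20.9 CPM), a difference of 4.67 (adjusted p = 3.52e-11). Napb, a protein of synaptic vesicle fusion, changed likewise, from 2.30 in mNPC to -2.01 in mCtx. Pcdhb16, at 3.79 in mNPC, was at -0.26 in mCtx, where its levels were 11.9 ± 1.78 and 14.2 ± 1.01 CPM. The kinase-like gene Ulk4 was at 0.70 in mNPC and 3.97 in mCtx, the annexin Anxa6 at -1.43 and 1.78, and the lysosomal peptidase Prcp at -1.37 and 1.70. Gabbr1 lay between the other 2 cell types, at -0.07 in mNPC, 2.12 in mESC and -2.09 in mCtx, and its mNPC value was lower than in mESC by -2.19 (adjusted p = 1.85e-08) and higher than in mCtx by 2.02 (adjusted p = 8.77e-08).

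**Figure D5:**
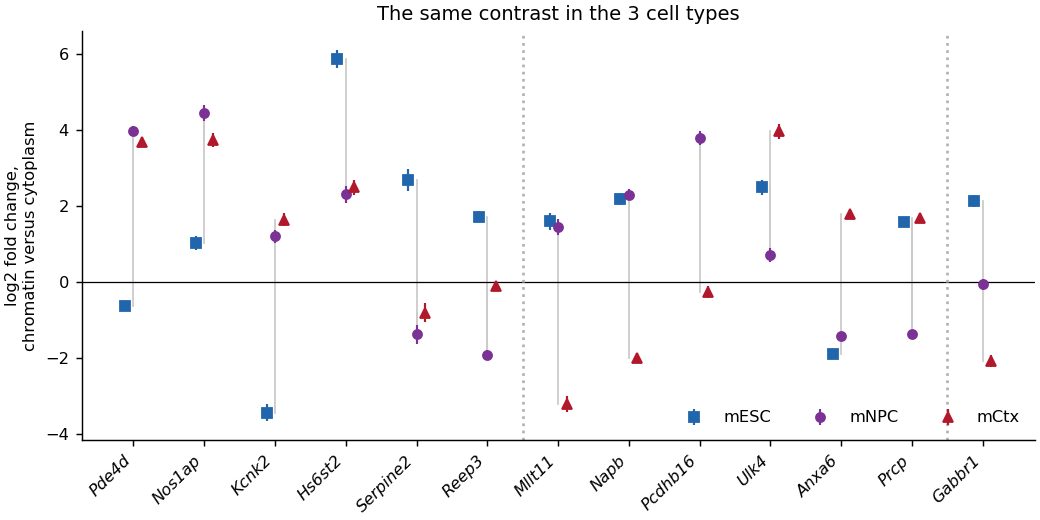
Fitted log2 fold change of chromatin over cytoplasm (y axis) in mESC, mNPC and mCtx for 13 genes, with bars of 1 standard error, grouped by dotted lines into genes named against mESC, genes named against mCtx and Gabbr1; Pcdhb16 is not drawn for mESC, where both fractions were under 1 CPM. Mllt11, Napb and Gabbr1 sit below 0 in mCtx, and Kcnk2 and Pde4d below 0 in mESC.

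By list, the share of members whose chromatin difference was not the same in mNPC as in another cell type varied. Of 82 ribosomal protein genes 76 were lower against mESC and none higher (median -1.38). Of 32 secretory genes 31 had a lower chromatin difference in mNPC than in mESC (median -1.17), and of 33 detained intron genes 30 had a higher one (median 1.05). Of 29 mitochondrially encoded genes, low tRNA genes included, 21 were lower against mESC and 23 higher against mCtx. Their own median log2 difference was 3.21 in mESC and -3.12 in mCtx. Of 23 clustered protocadherins 21 were higher against mCtx (median 2.81), in which their own median was -0.59. Axon guidance and adhesion genes had a median of 3.89 in mESC and of 3.63 in mCtx beside 3.72 in mNPC, and against mESC 9 of 43 members were higher and 11 lower, near the shares among all genes tested (16.7% and 23.5%). Against mCtx 16 of them were higher and 4 lower, where the shares of all genes were 21.8% and 12.2%. This split depended on scaling, with 11 higher and 7 lower by median-ratio size factors and 27 and 1 by total counts.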

How the data were processed

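The series holds 27 libraries of RNA over 200 nt, from 3 fractions of mESC, mNPC and mCtx. Per the submitters' processing notes, kallisto, STAR and featureCounts were used with the mm10 build, and neither versions nor roles are given. The authors deposited whole-number read counts for 37332 genes, and the deposited Length value equals the gene span for all 37332, so each count covers introns. The chromatin columns are listed here under the unit of expected counts because a format check read their abbreviation as chromosome, but the values the authors deposited there are whole-number counts like the rest and were not rounded. The authors also deposited TPM for 53379 genes, of which 35509 are in the count table. The strand setting and the rules for reads that fit several genes are not given in the sources used here. Biotypes, exons, positions and overlaps came from GENCODE M21 by gene ID, for 35533 of 37332 genes. Total counts ran from 12194455 to 18072292 in the 6 libraries compared. No column of per-sample values was left unused.

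The count fit used edgeR 4.0.16 under R 4.3.3 on all 27 libraries, with a mean for each group, TMM scaling and the default low-count filter, which kept 18249 genes. Quasi-likelihood tests had 18 residual degrees of freedom. Differences between cell types were contrasts of the 2 contrasts in that fit. TPM was tested with limma 3.58.1 on log2(TPM + 1), over 25256 genes at 1 TPM or more in at least 3 libraries. The ratio was log2(CPM + 0.5) minus log2(TPM + 0.5), centred on the median gene of each library, in limma over 15408 genes. Adjusted p-values are Benjamini-Hochberg at 0.05 over all genes tested. Intervals and the floor of 3 counts per library take in counting error alone. Other settings tried were total counts, median-ratio size factors, DESeq2 1.42.0, no low-count filter, the 6 compared libraries alone, a log2 fold change of at least 1, the replicate number as a block, each library left out in turn, and other pseudocounts, filters, scalings and centrings of TPM and the ratio. Figures were drawn with matplotlib 3.10.9.

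Genes named were the 3 highest and 3 lowest in each span class, the 5 with the widest gap between opposite calls by counts and TPM, the 3 largest differences each way from mESC and mCtx, a fixed set, and the extremes of each list, all but the fixed set reaching a mean of 10 CPM. Other list members and the microRNA loci were added after their values were seen. A gene that met these rules is not reported here. Genes of the first 3 kinds share no more than 0.5 of their span with another tested gene. The comparison, the 28 lists and the rules were chosen with earlier results of these data known. The deviations of same-numbered chromatin and cytoplasm libraries from their group means correlated at 0.310, 0.162 and 0.181, and those of unlike number at -0.203 to 0.0057. Deviations from a group mean cancel out within the group, so positive values at like numbers by themselves lower those at unlike numbers. This comparison therefore cannot show that the numbers pair these libraries, and the labels do not state it. Pairing by number was assumed for an alternative setting. The main fits do not use this pairing, and only the fits with the replicate number as a block do. On simulated data for the mNPC contrast with 18249 genes, edgeR recovered 22, 42, 50 and 50 of 50 genes changed 1.5-, 2-, 4- and 8-fold and called 5 of 18049 unchanged genes. For the difference from mESC it recovered 4, 38, 50 and 50 and called 6. For TPM (25256 genes) limma recovered 3, 31, 48 and 47 and called 7 of 25056, and for the ratio (15408 genes) 36, 46, 49 and 50 and called 6 of 15208. The changed genes were drawn only from genes above a minimum level, and all others were left without a difference. Simulated counts took their spread from the trend over genes and not from each gene. Recovery in low genes, and scaling where most genes differ as in these data, were therefore not tested.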

Additional observations from a re-analysis of the deposited data

Results flagged for a closer look

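The chromatin-to-cytoplasm difference differed between mNPC and another cell type in many genes, by edgeR's test of the difference itself. Against mESC this held for 7337 genes. The named genes with a larger chromatin share in mNPC than in mESC were Kcnk2 (difference 4.65 on the log2 scale), Pde4d (4.62) and Nos1ap (3.42), and those with a smaller one were Serpine2 (-4.06), Reep3 (-3.65) and Hs6st2 (-3.56). Over 17 alternatives Kcnk2 ranged from 4.35 to 4.83, Pde4d from 4.33 to 4.70 and Serpine2 from -4.53 to -3.74, and the largest adjusted p of these 6 genes was 6.46e-08.

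Against mCtx the difference passed in 6204 genes. Mllt11 (4.67), Napb (4.30) and Pcdhb16 (4.05) had a larger chromatin share in mNPC, and Ulk4 (-3.27), Anxa6 (-3.21) and Prcp (-3.07) a smaller one. Over 17 alternatives Mllt11 ranged from 4.43 to 5.41, Ulk4 from -3.50 to -2.53 and Prcp from -3.31 to -2.32, and the largest adjusted p of these 6 genes was 1.81e-08. Groups of 3 libraries were not screened for single libraries that stand apart.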

How the results depend on the processing

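Of the summary values recomputed under the alternatives, 223 stayed within 1.5 times the reported count or 1 SD of the reported median, 29 moved further and 1 turned. Where a value moved, the cause was not tested beyond the setting itself. Requiring a log2 fold change of at least 1 left 7642 genes, 4123 higher and 3519 lower, of 12686. The ratio split was 9687 higher and 1628 lower centred on single-exon genes and 3530 higher with no centring, against 5384 and 4910. Against mESC, total-count scaling gave 1940 genes higher in place of 3047. Against mCtx, DESeq2 gave 3422 lower in place of 2227, and total counts gave 9724 in all, 9187 higher and 537 lower, in place of 6204, 3977 and 2227. The span-class medians kept their order under each setting in which they were recomputed. These did not include DESeq2, the fit with no low-count filter, that of the 6 compared libraries alone or a TPM pseudocount of 0.1. Under 10 kb (reported median -1.22) the median was -1.04 with total counts, -1.17 with median-ratio factors, -0.26 by TPM, -0.69 by rescaled TPM and -1.89 in genes at 10 CPM or more, and -1.26 to -1.18 when each library was left out in turn. From 10 to 30 kb it was -0.14 with total counts, -0.28 with median-ratio factors, 0.0 by TPM and -0.60 in genes at 10 CPM or more. From 30 to 100 kb it was 0.62 with total counts, 0.49 with median-ratio factors, 0.21 by TPM and -7.58e-05 by rescaled TPM, where the sign turned. At 100 kb or more it was 2.01 with total counts, 0.41 by TPM and 0.19 by rescaled TPM, and 1.80 to 1.91 with each library left out. Leaving out each library in turn gave 12231 to 12316 genes by counts, 14231 to 14451 by TPM, 9721 to 9847 by the ratio, 6736 to 7605 against mESC and 5454 to 5896 against mCtx. Of the values of single genes, 1914 kept their call, 35 lost it, mostly under the fold change limit, 13 gained it and no called gene turned. With total-count scaling Srsf3 was at -0.29 (edgeR adjusted p = 0.0601) and Ndufs4 at 0.30 (0.0142), and in the 6 compared libraries alone Tug1 was called lower at -0.29 (0.0208). With 3 libraries a group, changes under 2-fold were often missed in simulation.

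The replicate block gave 13342 genes by counts, 7158 higher and 6184 lower, 15818 by TPM, 10404 by the ratio, 8791 against mESC and 7737 against mCtx, and its span-class medians stayed within 1 SD. Of 151 named genes it changed the calls of Egr1, Nlgn2 and Terc, whose values stand in the report, and no other.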
